A study of Mus musculus with 5 samples.

Results

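The G2 and mitosis genes described here are 41 genes whose products take a cell from the end of DNA replication through chromosome segregation to cytokinesis. They were chosen by name, and all 41 were found among the 23997 gene names of the expression table. All 41 also passed the filter on low values, 0.1 FPKM or more as the mean of the 5 libraries, which left 14698 genes to test. The RNA came from dissected whole cortices of C57BL/6 mouse embryos at embryonic day 16 (E16). The 3 control libraries, MG15, MG16 and MG17, were from Emx1 Cre/+ Uhrf1 +/- embryos, and the 2 conditional knockout (cKO) libraries, MG18 and MG19, were from Emx1 Cre/+ Uhrf1 -/- embryos. Both groups carried the Cre, and the controls lacked Uhrf1 on a single allele. Uhrf1 encodes the protein that brings the maintenance DNA methyltransferase to newly replicated DNA, and the comparison asks how the transcripts of dividing cells stood in a cortex that had lost it. The Cre is driven by Emx1 in the dorsal telencephalon, so that interneurons, vessels, microglia and other cells from outside this lineage kept an unrecombined Uhrf1 gene. Values are FPKM, in which the fragments of a gene are divided by its transcript length and by the size of the library, so levels of different genes can be compared per unit of length. A log2 fold change is the cKO mean minus the control mean of log2(FPKM + 0.1).

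Transcripts of the G2 and mitosis genes are scarce in early G1 and build up in late S phase and G2. In resting cells the DREAM complex keeps these genes silent, and in cycling cells B-Myb, its MuvB partners and FoxM1 switch them on. MuvB contacts a short promoter element, the cell cycle genes homology region (CHR), and the factor NF-Y contacts CCAAT boxes beside it. In the embryonic cortex the dividing cells are the radial glia of the ventricular zone and the intermediate progenitors of the subventricular zone. Neurons have left the cell cycle, so the level of these transcripts in a whole cortex follows both the number of dividing cells and the amount of RNA in each.

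The promoter elements were looked up first, because they are what the genes share beyond their function. RefSeq promoters of build GRCm38.p6, 250 bases before to 50 bases after the start of a gene, were at hand for 34 of the 41 genes, and the promoters of Aurkb, Ccna2, Cdc25c, Incenp, Kif20a, Smc4 and Tpx2 were not analysed here. The letters TTTGAA or TTCGAA, searched as a CHR on both strands, stood in 27 of the 34 promoters (79.4%), against 13.3% of the 10939 promoters of all genes tested and 19.4% of all 27025 promoters of this length. CCAAT, also searched on both strands, stood in 29 (85.3%), against 38.7% of the genes tested and 37.9% of all promoters. Both were present in 26 (76.5%), against 5.64% and 7.7%, and the CHR and CCAAT matches overlapped in 1 promoter of the 34. In 13 promoters a CHR match lay wholly before the start on which the RefSeq promoter is set, and in 10 of these it also lay wholly before the outermost annotated start of the gene, the others being Ncapg, Ect2 and Ncapd2. The 8 windows of 30 bases shown here are read 5′ to 3′ on the strand of the gene, with a CHR match in capitals. Of the matches wholly before the start, it is the nearest to it. The promoter of Top2a held 4 matches, and those of Ccnb2, Bub1b, Cdk1 and Mki67 held 2 each. The windows are from 5 genes that were lower in the cKO, from Cdk1, and from Ube2c and Mki67, whose log2 fold changes were 0.03 and 0.01.
Cdc20: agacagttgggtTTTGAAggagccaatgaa
Ccnb2: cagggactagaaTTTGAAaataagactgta
Top2a: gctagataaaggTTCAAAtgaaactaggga
Bub1b: tctctccctgggTTCGAAggcttgtcttag
Kif11: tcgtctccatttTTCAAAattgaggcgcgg
Cdk1: ctttaccgcggcgagTTTGAAactgctggc
Ube2c: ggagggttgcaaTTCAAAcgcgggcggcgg
Mki67: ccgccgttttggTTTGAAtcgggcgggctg

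The windows lie at chr4:118437344-118437373 (Cdc20, minus strand), chr9:70421704-70421733 (Ccnb2, minus), chr11:99024195-99024224 (Top2a, minus), chr2:118598011-118598040 (Bub1b, plus), chr19:37376351-37376380 (Kif11, plus), chr10:69352913-69352942 (Cdk1, minus), chr2:164769888-164769917 (Ube2c, plus) and chr7:135716460-135716489 (Mki67, minus). In Top2a, Kif11 and Ube2c the element is on the other strand, where TTCAAA reads TTTGAA. Counted from the start on which the promoter is set, the capitals begin 18 bases before it in Cdc20, 23 in Top2a, 19 in Kif11, 15 in Cdk1 and 29 in Ube2c, and 167 in Ccnb2, 188 in Bub1b and 98 in Mki67. From the outermost annotated start they begin 13 bases before in Top2a, 179 in Bub1b and 27 in Mki67, with no difference in the other 5 genes. Among the members lower in the cKO, 11 of 12 promoters held a CHR and 11 a CCAAT box, and among the others 16 and 18 of 22 did. A match is a description of the letters in this window and not a binding site, and these counts of members were not compared by a test. In the other lists of cell cycle genes, a CHR stood in 50.6% of 79 promoters of further G2 and mitosis genes and in 15.8% of 38 promoters of S phase genes.

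**Figure D1:**
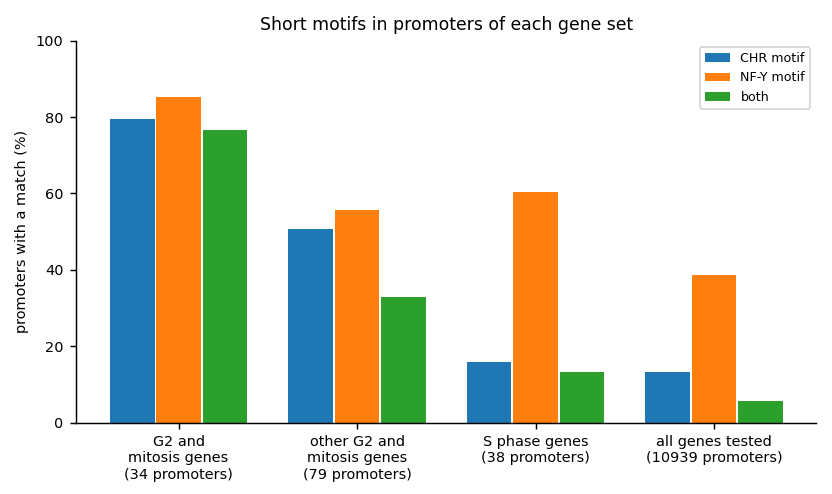
Share of promoters (in percent, from 250 bases before to 50 bases after the gene start) that hold the CHR letters, the CCAAT box bound by NF-Y, or both, for the 41 G2 and mitosis genes (34 promoters), other G2 and mitosis genes, S phase genes and all genes tested. The bar for both motifs reaches 76.5% in the G2 and mitosis genes and 5.64% in all genes tested.

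Uhrf1 read 7.24, 13.2 and 12.95 FPKM in MG15, MG16 and MG17 against 2.75 and 2.61 FPKM in MG18 and MG19, and its log2 fold change was -1.97 ± 0.28 (SE, limma, adjusted p = 0.00775, or 0.277 without MG18 and 0.313 without MG19). The lowest control value was that of MG15. The table holds no counts. Spacing of the low values of long genes put the depth at about 41000000, 16000000 and 10000000 fragments for the controls. For the cKO it was about 8100000 and 10000000, and all of these are rough figures. Each depth was chosen to give the highest share of these values close to whole fragments, 68.0% to 83.7%. That share was not compared with chance. At these depths the lowest value of a G2 and mitosis gene in any library corresponded to at least 36 fragments per kilobase of transcript. Names of small RNAs, which were left out of the test, made up 87.4%, 64.6% and 71.7% of all FPKM in MG15, MG16 and MG17 and 39.2% and 56.0% in MG18 and MG19.

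At E16 the G2 and mitosis genes were modestly lower in the cKO cortex. At an unadjusted p under 0.05, 15 of the 41 were lower (36.6%, against 5.17% of all genes tested, and 2 of the 41, against 4.34%, without MG18) and 0 were higher (against 6.37%). The 15 genes stood at 61.1% to 75.1% of the mean in the controls, with log2 fold changes from -0.68 to -0.42. None of the 41 changed more than 2-fold at that threshold, where 1.16% of all genes were lower and 2.88% higher. None passed an adjusted p of 0.05 in limma after adjustment over all genes (0.163% of all genes were lower and 1.1% higher there), and the lowest adjusted p was that of Prc1, 0.140. The median log2 fold change of the 41 genes was -0.41, with quartiles of -0.55 and -0.16, against -0.02 over all genes tested. In a whole cortex, fewer dividing cells and less of each transcript per dividing cell cannot be told apart.

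Without reference to a model, both cKO libraries lay below all 3 controls for 20 of the 41 genes (48.8%, against 16.3% of all genes tested), and for 0 genes did both lie above (against 14.5%). Of these 20 genes, 14 were among the 15 lower ones. Kif11 was lower with overlapping groups. The 6 genes whose groups did not overlap but which did not pass the test were Birc5, Cdk1, Ccnb1, Kif23, Nek2 and Ccnf, at 69.0% to 85.7% of their control means. The mean log2 value was below that of the controls in 38 genes (92.7%, against 52.2% of all genes). It was so in 35, 36 and 41 genes under 3 other scalings, which moved Cdc25b, Ube2c, Mki67, Mad2l1, Ncapd2 and Racgap1 across 0. Rescaling each library without its small RNAs moved the median of all genes to -0.38 and that of the 41 genes to -0.78, -0.40 relative to all genes. Then 30 of the 41 were lower, where 29.7% of all genes were. Of the 41, 14 passed an adjusted p of 0.05 in limma (lowest adjusted p 0.0119). The share of all genes past it under this rescaling is not given here, so the 14 cannot be set against that share. Without the trend of the variance on the mean the count of 15 was 8, where 4.12% of all genes were lower.

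**Figure D2:**
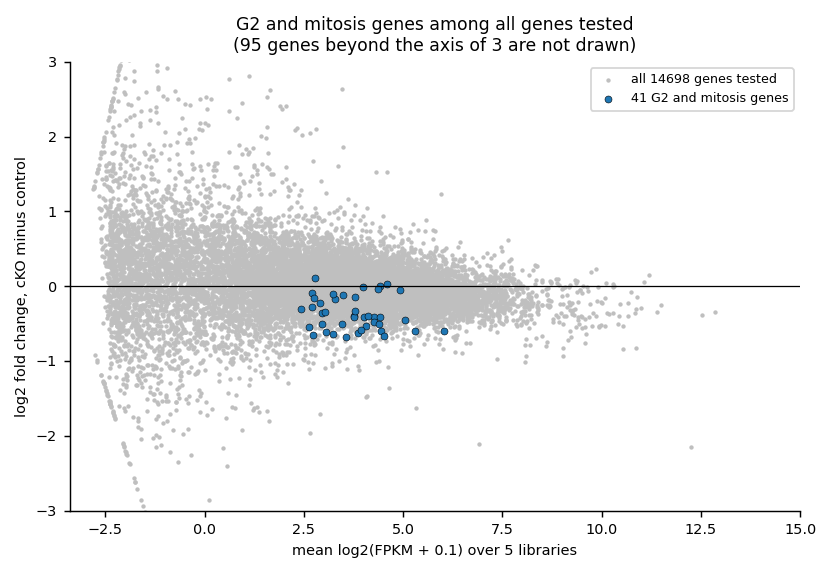
Log2 fold change between cKO and control (vertical axis) against the mean log2(FPKM + 0.1) over the 5 libraries (horizontal axis) for the 14698 genes tested (gray) and the 41 G2 and mitosis genes (blue). The 41 genes lie between -0.68 and 0.10 on the vertical axis, and 95 genes beyond 3 on either side are not drawn.

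The libraries of each group did not sit together. MG15 was the lowest control for 35 of the 41 genes and MG17 the highest for 27, and MG18 was the lower cKO library for 35. The ratio of the highest to the lowest control had a median of 1.44 over the genes and ranged from 1.08 in Bub1b to 1.89 in Mad2l1, whereas that of the cKO libraries had a median of 1.21. On the log2 scale the mean of the 41 genes stood at -0.25 in MG15, 0.06 in MG16 and 0.19 in MG17 relative to the control mean, at -0.47 in MG18 and at -0.25 in MG19. MG15 and MG19 were thus level, with 23 of the 41 genes lower in MG19 (median log2 difference -0.02). Against MG16 and MG17, MG19 was lower for 38 and 36 genes (medians -0.31 and -0.50), and MG18 was lower for 39 and 38 (medians -0.59 and -0.74). MG18 was below MG15 for 32 genes (median -0.22).

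Prc1 and Cdc20 were lower at an unadjusted p under 0.05 whichever library was left out, and the other 13 of the 15 genes lost that call in at least 1 such fit. Without MG18 the count fell from 15 to 2, or 4.88% where 4.34% of all genes were lower, and the log2 fold changes of the 13 genes that lost the call were then -0.68 to -0.19. Without MG16 it was 8 (against 4.98% of all genes), with Cdc25c, Hmmr, Nusap1, Kif11, Bub1b, Ttk and Smc4 lost at -0.63 to -0.40. Without MG17 Cdc25c, Nusap1, Kif11, Ttk and Smc4 were lost at -0.46 to -0.39, and without MG19 Ccna2, Cdc25c and Ttk were lost at -0.69 to -0.64. Without MG15 only Bub1b was lost, at -0.40, and 8 genes passed in addition, Cdk1, Tpx2, Birc5, Bub1, Cenpe, Smc2, Ncapg and Ect2, which made 22 (against 3.70% of all genes). In these 5 fits the median over the 41 genes lay between -0.55 and -0.26.

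**Figure D3:**
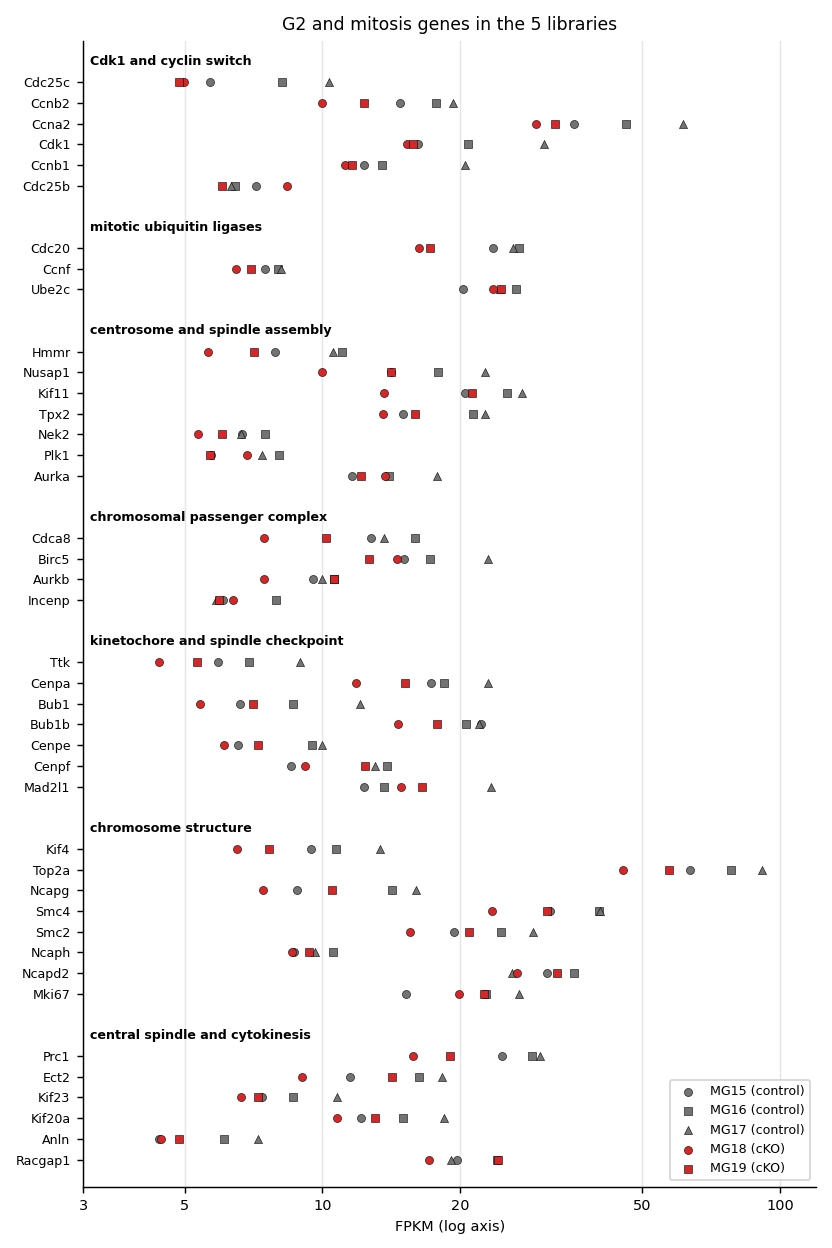
FPKM (horizontal log axis) of each of the 41 genes in the 3 control libraries (gray) and the 2 cKO libraries (red), grouped by role and ordered within a role by log2 fold change. MG18 has the lowest value of the 5 libraries for 29 genes, and MG17 the highest for 27.

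The Cdk1 and cyclin switch decides when a cell enters mitosis: cyclin A2 and the B cyclins activate the kinase Cdk1, and Cdc25 phosphatases remove its inhibitory phosphates. Of the 6 genes, 3 were lower in the cKO (Ccnb2, Ccna2 and Cdc25c), 5 had groups that did not overlap, and the median log2 fold change was -0.54. Ccna2 had the highest level per length, at 35.5, 46.0 and 61.2 FPKM in MG15, MG16 and MG17 and at 29.2 and 32.2 FPKM in MG18 and MG19. Both cKO libraries were below every control, and MG17 was well above the other controls. The log2 fold change of Ccna2 was -0.59 ± 0.22 (SE, limma, adjusted p = 0.359). Ccnb2, which encodes cyclin B2, read 14.8, 17.7 and 19.3 FPKM in MG15, MG16 and MG17 against 9.997 and 12.3 FPKM in MG18 and MG19. Its groups were separate, and the log2 fold change was -0.62 ± 0.19 (SE, limma, adjusted p = 0.236). Cdc25b read 7.15, 6.43 and 6.30 FPKM in MG15, MG16 and MG17 against 8.38 and 6.05 FPKM in MG18 and MG19. Here MG18 was above and MG19 below all controls, and the log2 fold change was 0.10 (95% interval from -0.37 to 0.57). Cdc25c, the other phosphatase of the list, stood at 61.1% of the level in the controls (log2 fold change -0.66 ± 0.26 SE, limma, adjusted p = 0.382). Cdk1 and Ccnb1 did not pass the test, with log2 fold changes of -0.48 (interval from -1.04 to 0.07) and -0.40 (from -0.91 to 0.12), and their values in MG18 and MG19 lay close together, below the lowest control. In this role both cKO libraries were equally low, with a mean log2 level of -0.44 relative to the controls in each, and MG15 was at -0.28.

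Exit from mitosis depends on ubiquitin ligases, and 3 of the 41 genes encode parts of them. Cdc20 activates the anaphase promoting complex, Ube2c is a ubiquitin-conjugating enzyme of that complex, and Ccnf encodes cyclin F, which directs an SCF ligase. Cdc20 read 23.6, 26.9 and 26.1 FPKM in MG15, MG16 and MG17 against 16.3 and 17.2 FPKM in MG18 and MG19. The groups were far apart compared with the spread inside them, and the log2 fold change was -0.61 ± 0.15 (SE, limma, adjusted p = 0.147). Ube2c, with the highest mean of the 3 per length over the 5 libraries although Cdc20 was higher in every control, read 20.3, 26.5 and 24.4 FPKM in MG15, MG16 and MG17 against 23.6 and 24.6 FPKM in MG18 and MG19. Both cKO values fell inside the control range, and the log2 fold change was 0.03 (interval from -0.35 to 0.41). For Ccnf the log2 fold change was -0.22 (interval from -0.62 to 0.18), with cKO values just below the lowest control.

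Among the 7 genes of centrosome and spindle assembly, Hmmr, Nusap1 and Kif11 were lower, and the median log2 fold change was -0.40. Hmmr, a spindle pole protein that works with Tpx2, read 7.90, 11.1 and 10.6 FPKM in MG15, MG16 and MG17 against 5.62 and 7.08 FPKM in MG18 and MG19. Both cKO libraries were below MG15, the lowest control, and the log2 fold change was -0.62 ± 0.22 (SE, limma, adjusted p = 0.320). Kif11, the kinesin that pushes spindle poles apart and the most abundant of the 7 per length, read 20.5, 25.3 and 27.3 FPKM in MG15, MG16 and MG17 against 13.6 and 21.2 FPKM in MG18 and MG19. MG19 lay above MG15, so the groups overlapped, and the log2 fold change was -0.51 ± 0.22 (SE, limma, adjusted p = 0.420). Nusap1, a microtubule bundling protein, stood at 66.1% of the control mean with a log2 fold change of -0.59 ± 0.24 (SE, limma, adjusted p = 0.392), although its value in MG19 equaled that in MG15 to 3 digits, at 14.1 FPKM. The kinases of this role gave values nearer to 0. Aurka read 11.6, 14.0 and 17.8 FPKM in MG15, MG16 and MG17 against 13.7 and 12.1 FPKM in MG18 and MG19, with both cKO libraries inside the control range (log2 fold change -0.14, interval from -0.61 to 0.32). For Plk1 the log2 fold change was -0.16 (interval from -0.64 to 0.33) and for Nek2 it was -0.28 (from -0.71 to 0.14). Tpx2, which activates Aurora A on the spindle, had a log2 fold change of -0.40 (from -0.87 to 0.08).

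The chromosomal passenger complex corrects faulty attachments of chromosomes to the spindle, and all 4 of its subunits were in the list: the kinase Aurkb, the scaffold Incenp, and Birc5 (survivin) and Cdca8 (borealin), which bring it to the centromere. Only Cdca8 was lower. It read 12.8, 15.95 and 13.6 FPKM in MG15, MG16 and MG17 against 7.46 and 10.2 FPKM in MG18 and MG19. All cKO values lay below all control values, and its log2 fold change of -0.68 ± 0.20 (SE, limma, adjusted p = 0.225) was the lowest of the 41 genes. Birc5, the most abundant of the 4 per length, read 15.1, 17.2 and 23.0 FPKM in MG15, MG16 and MG17 against 14.5 and 12.6 FPKM in MG18 and MG19. The groups did not overlap, but MG18 and MG15 were close, and the log2 fold change was -0.42 (interval from -0.88 to 0.05). Incenp read 6.08, 7.93 and 5.86 FPKM in MG15, MG16 and MG17 against 6.38 and 5.94 FPKM in MG18 and MG19, with the groups fully mixed (log2 fold change -0.09, interval from -0.56 to 0.38). Aurkb gave -0.17 (from -0.62 to 0.28). The interval of Birc5 held the estimate of Cdca8 while those of Aurkb and Incenp ended short of it, and the difference between subunits was not tested.

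The kinetochore links a chromosome to the spindle, and the spindle checkpoint delays anaphase until every kinetochore is attached. Of 7 genes, Cenpa, Bub1b and Ttk were lower, and the median log2 fold change was -0.42. Cenpa, the histone H3 variant that marks the centromere, read 17.2, 18.4 and 22.9 FPKM in MG15, MG16 and MG17 against 11.8 and 15.1 FPKM in MG18 and MG19. The groups were separate, with a log2 fold change of -0.53 ± 0.19 (SE, limma, adjusted p = 0.339). Bub1b, which encodes the checkpoint protein BubR1 and had the highest level of the 7 per length, read 22.3, 20.6 and 22.0 FPKM in MG15, MG16 and MG17 against 14.6 and 17.8 FPKM in MG18 and MG19. Its controls were the tightest of all 41 genes, MG15 was here the highest of them, and the log2 fold change was -0.42 ± 0.16 (SE, limma, adjusted p = 0.380). Ttk, the checkpoint kinase Mps1, stood at 67.1% of the level in the controls (log2 fold change -0.55 ± 0.23 SE, limma, adjusted p = 0.407). Mad2l1, the checkpoint protein that inhibits Cdc20, read 12.3, 13.7 and 23.4 FPKM in MG15, MG16 and MG17 against 14.9 and 16.5 FPKM in MG18 and MG19. The cKO libraries lay above MG15 and MG16 and below MG17, so its log2 fold change of -0.01 had a wide interval, from -0.60 to 0.58. Bub1 and the large kinetochore proteins Cenpe and Cenpf did not pass, with log2 fold changes of -0.51, -0.36 and -0.11.

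Chromosome structure was the largest role, with 8 genes, of which Kif4, Top2a and Smc4 were lower and the median log2 fold change was -0.43. Top2a, the topoisomerase that untangles sister chromatids, had the highest level per length of the 41 genes, with 63.5, 78.3 and 91.5 FPKM in MG15, MG16 and MG17 against 45.4 and 57.0 FPKM in MG18 and MG19. The cKO libraries were below every control, and the log2 fold change was -0.59 ± 0.19 (SE, limma, adjusted p = 0.285). Kif4, a chromosome-bound kinesin, read 9.43, 10.7 and 13.3 FPKM in MG15, MG16 and MG17 against 6.51 and 7.62 FPKM in MG18 and MG19. Its groups were also apart (log2 fold change -0.64 ± 0.20 SE, limma, adjusted p = 0.269). Condensin compacts mitotic chromosomes and contributed 5 genes. Its shared subunit Smc4 was lower (log2 fold change -0.46 ± 0.19 SE, limma, adjusted p = 0.402), while its partner Smc2 at -0.41 (interval from -0.89 to 0.07) and the condensin I subunit Ncapg at -0.51 (from -1.12 to 0.10) were not past the test. The condensin subunits Ncapd2 and Ncaph gave -0.05 (from -0.46 to 0.36) and -0.10 (from -0.50 to 0.30). Mki67, which encodes the proliferation marker Ki67 that coats mitotic chromosomes, read 15.2, 22.8 and 26.8 FPKM in MG15, MG16 and MG17 against 19.9 and 22.6 FPKM in MG18 and MG19. Both cKO values lay inside the control range, above MG15, and the log2 fold change was 0.01 (interval from -0.52 to 0.54).

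For the central spindle and cytokinesis, Prc1 alone of 6 genes was lower, and the median log2 fold change was -0.34. Prc1 bundles the microtubules of the central spindle, had the highest mean of the 6 per length over the 5 libraries although Racgap1 was higher in the cKO, and had the lowest p of all 41 genes. It read 24.7, 28.6 and 29.9 FPKM in MG15, MG16 and MG17 against 15.8 and 19.0 FPKM in MG18 and MG19. The groups were clearly apart, at 62.8% of the control mean, and the log2 fold change was -0.67 ± 0.17 (SE, limma, adjusted p = 0.140). Racgap1, which with Kif23 forms centralspindlin, read 19.7, 24.0 and 19.1 FPKM in MG15, MG16 and MG17 against 17.1 and 24.2 FPKM in MG18 and MG19. The cKO libraries stood at either end of the range, and the log2 fold change was -0.03 (interval from -0.48 to 0.41). Kif23 gave -0.34 (from -0.81 to 0.13), with both cKO libraries below the controls. Kif20a, a kinesin of the midzone, gave -0.34 (from -0.81 to 0.13), Ect2, the activator of RhoA at the cleavage furrow, gave -0.41 (from -0.98 to 0.17), and the scaffold Anln (anillin) gave -0.31 (from -0.86 to 0.24). In this role MG19 was above MG15, with mean log2 levels of -0.19 and -0.26 relative to the controls, while MG18 was at -0.51.

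**Figure D4:**
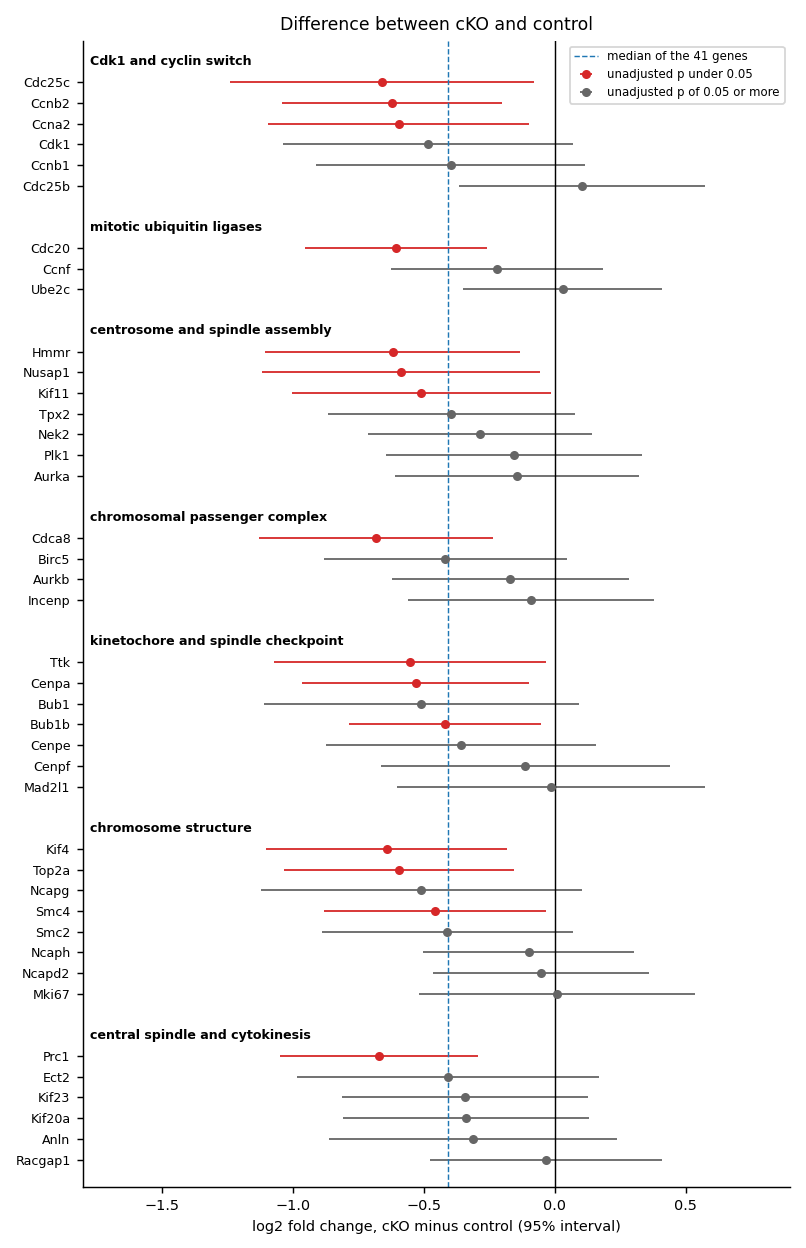
Log2 fold change (cKO minus control) with its 95% interval from limma for each of the 41 genes, grouped by role. Red marks the 15 genes with an unadjusted p under 0.05, the blue dashed line is the median of the 41 genes at -0.41, and every role holds genes on both sides of that line.

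The genes did not all follow the median. For 12 of them, Aurkb, Plk1, Aurka, Ncaph, Cdc25b, Cenpf, Incenp, Ncapd2, Ube2c, Racgap1, Mad2l1 and Mki67, the log2 fold change was within 0.2 of 0. Their intervals were wide, and for 10 of the 12 the 95% interval also held the median of the 41 genes, -0.41. The exceptions were Cdc25b and Ube2c, whose intervals ended at -0.37 and -0.35. The other 14 genes that did not pass the test lay between -0.51 and -0.22.

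Of 104 further genes of G2 and mitosis, 11 passed the same threshold as lower and 1 as higher. Of all genes tested, 5.17% and 6.37% did. The median log2 fold change of the 104 was -0.26, or -0.18 without MG18. The 11 became 26 without MG15, where 3.70% of all genes were lower. After rescaling without small RNAs the 11 became 61, where 29.7% of all genes were lower. Both cKO libraries lay below all controls for 33 of the 104 (against 16.3% of all genes tested). The lower genes were Fam64a, Cks1b, Spdl1, Kif2c, Pbk, Spc24, Kif18a, Tacc3, Stag2, Kif22 and Smc1a, with 6 of them in the list of spindle and centrosome genes. Fam64a read 18.5, 18.5 and 23.2 FPKM in MG15, MG16 and MG17 against 14.2 and 11.5 FPKM in MG18 and MG19 (log2 fold change -0.64 ± 0.18 SE, limma, adjusted p = 0.213). The single higher gene was Kntc1, a subunit of the kinetochore complex that recruits dynein, with 4.15, 5.71 and 5.94 FPKM in MG15, MG16 and MG17 against 29.6 and 36.4 FPKM in MG18 and MG19 (log2 fold change 2.63 ± 0.21 SE, limma, adjusted p = 1.9e-04). Cenpa, Bub1b and Ttk, of the same structure, were lower. Of 10 genes of the factors that control the program, 0 passed in either direction with limma at an unadjusted p under 0.05, and Foxm1 gave 0.10 (SE 0.25) and Mybl2, which encodes B-Myb, gave 0.52 (SE 0.30). Of 47 S phase genes, only Prim2, a primase subunit, was lower (log2 fold change -0.40 ± 0.17 SE, limma, adjusted p = 0.417). Fen1, the flap endonuclease of the lagging strand, came next at -0.31 (SE 0.16). The median of the 47 was -0.20, and 0 passed after quantile normalization or median ratio scaling. Without MG15 5 were lower (against 3.70% of all genes), and without MG17 0 were lower and 1 was higher. After rescaling without small RNAs 27 were lower (against 29.7% of all genes), with a median of -0.57.

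The level of the G2 and mitosis genes was set beside markers of the cells a cortex holds. Of 13 progenitor markers, 11 had a lower mean log2 value in the cKO and 2 a higher one, Sox2 at 0.05 and Slc1a3 at 0.15. Of the 13, 5 passed as lower (Eomes, Pax6, Nes, Hopx and Neurog2) and 0 as higher, against 5.17% and 6.37% of all genes tested. The 13 markers had a median log2 fold change of -0.41, the same as that of the 41 genes. Without MG19 the median of the 13 markers was -0.37. After rescaling without small RNAs 10 of them passed as lower, where 29.7% of all genes did. The median of the markers was then -0.78, against -0.38 for all genes. Eomes, the factor of intermediate progenitors, read 35.5, 49.3 and 52.0 FPKM in MG15, MG16 and MG17 against 26.8 and 25.02 FPKM in MG18 and MG19 (log2 fold change -0.79 ± 0.19 SE, limma, adjusted p = 0.118). Pax6, the factor of radial glia, read 16.2, 20.5 and 22.4 FPKM in MG15, MG16 and MG17 against 10.7 and 13.9 FPKM in MG18 and MG19 (log2 fold change -0.68 ± 0.20 SE, limma, adjusted p = 0.230). As with the G2 and mitosis genes, MG15 was the lowest control for both factors. The progenitor list stood at -0.21, 0.01 and 0.20 in MG15, MG16 and MG17 relative to the control mean and at -0.31 and -0.49 in MG18 and MG19, so the order of the controls was that of the 41 genes and the order of the cKO libraries was the opposite. The mean log2 level of the 41 genes minus that of the progenitor markers was -1.74, -1.65 and -1.70 in MG15, MG16 and MG17 and -1.86 and -1.47 in MG18 and MG19, a difference of 0.04 between the group means with the cKO libraries on either side of the controls. The same difference against the S phase genes was -0.18, and against 10 neuron markers it was -0.35. For the neuron markers the median was 0.01 (-0.36 after rescaling without small RNAs, near the shift of all genes), and 0 of them passed in either direction with limma at an unadjusted p under 0.05, Tbr1 and Neurod6 having the lowest p at 0.32 (SE 0.18) and -0.40 (SE 0.24).

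**Figure D5:**
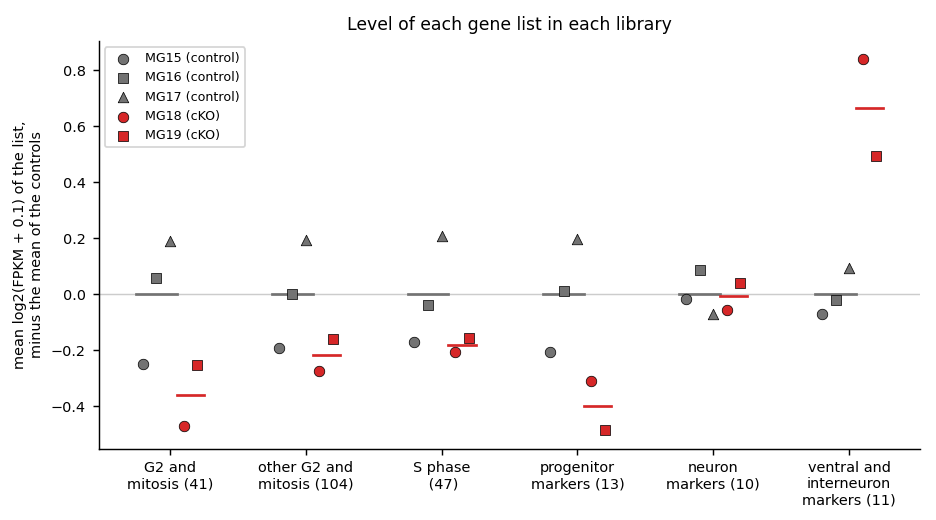
Mean log2(FPKM + 0.1) of each gene list in each library, minus the mean of the 3 controls (vertical axis), for the 41 G2 and mitosis genes, other G2 and mitosis genes, S phase genes and markers of progenitors, neurons and the ventral telencephalon, with the number of genes in brackets and a bar at each group mean. The G2 and mitosis genes stand at -0.47 in MG18 and at -0.25 in both MG19 and the control MG15.

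Markers chosen for cells outside the Emx1 lineage were read in the same libraries. Whether cells of that lineage also held these transcripts was not tested. All 11 markers of the ventral telencephalon and interneurons had a higher mean in the cKO, with 6 past the test. Of all genes tested, 6.37% were higher at that threshold. Without MG18 all 11 were still higher, with a median log2 fold change of 0.45 in place of 0.65. After rescaling without small RNAs 10 were higher and 0 passed. Of all genes, 2.48% then passed as higher, and their median was -0.38. Summed, the 11 markers ranged from 60.2 to 64.5 FPKM over the controls and from 78.8 to 99.4 FPKM over the cKO libraries. The lowest p were those of Dlx1 (log2 fold change 0.65, SE 0.20) and Sp8 (0.79, SE 0.26), and MG18, in which the G2 and mitosis genes were lowest, was the higher of the cKO libraries for both. For 5 oligodendrocyte precursor markers the sums were 11.7 to 19.1 and 22.5 to 31.3 FPKM. Of these markers 3 passed as higher (0 after rescaling), and Pdgfra and Olig1 gave 0.79 and 0.92. Without MG18 the median of the 5 was 0.52 in place of 0.77. For 7 microglia markers the sums were 26.2 to 47.7 and 46.5 to 49.1 FPKM. Of the 7, 3 passed as higher (5 without MG17, 1 without MG16 and 0 after rescaling). Of all genes, 6.62% were higher without MG17 and 5.21% without MG16. Cx3cr1 and Csf1r gave 0.87 and 0.71, while Aif1 and P2ry12 were lower in the cKO, at -0.55 and -0.18, without passing. The 7 markers of vessels overlapped, at 104.5 to 143.7 and 120.7 to 122.7 FPKM, with Kdr at 0.61 past the test and Tek at 0.45 not. Meninges and choroid plexus were barely present, at 3.69 to 4.91 and 8.57 to 9.03 FPKM, with Col1a1 at 1.64 and Ttr at -1.52 past the test, Ttr listed at 0 in MG18, and Folr1 at 0 in both cKO libraries. Erythroid markers summed to 582.1 to 917.8 and 442.4 to 504.9 FPKM. Hbb-bs gave -0.74, and the value of 4.55 for Hba-a1 is uncertain, since its near-identical copy Hba-a2 gave -4.75. The part of these cells in the level of the G2 and mitosis genes was not tested.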

How the data were processed

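The authors sequenced ribosomal RNA-depleted, strand-specific libraries as 100-base pairs, mapped them to mm10 with TopHat2, dropped reads that were improperly paired, duplicated, poorly aligned or multiply mapped, and deposited FPKM values per gene and library from Cuffdiff and cummeRbund. Versions and annotation were not given in the labels or methods. Counts were not used here, so no count test was run. For the same reason genes that overlap an annotated neighbor, 21 of the 41, are less certain where strand was not used in counting.

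The deposited values were fitted as log2(FPKM + 0.1) with limma 3.58.1 in R 4.3.3 (trended eBayes, 3 residual and 6.23 prior degrees of freedom), cKO against control, two-sided, with Benjamini-Hochberg adjustment over 14698 genes. Of 1225 small RNA names, 57 reached the minimum of 0.1 FPKM and were left out. Thresholds were an unadjusted p under 0.05, the same with over 2-fold, and an adjusted p under 0.05. The fit was tested on simulated data. The 41 genes, the other lists, the markers and the 12 alternatives were chosen with earlier results of these data known. Values per library are given for the gene with the highest mean, the lowest p and the highest p of each of 7 roles, and from every other list the 2 genes with the lowest p are named. The lower genes of the second G2 and mitosis list after the first were named after their values were seen. So were Nes, Hopx, Neurog2, Sox2, Slc1a3, Aif1, P2ry12, Foxm1, Mybl2, Folr1 and Hba-a2. The libraries are called biological replicates in the methods of the study, and p-values measure only the spread between them. Promoters were read from RefSeq (GRCm38.p6), 250 bases before to 50 after each start, with Python 3.11.15.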

Additional observations from a re-analysis of the deposited data

How the results depend on the processing

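The direction of the 41 genes as a group did not turn under any of the 12 alternatives. Their count of 15 lower genes was 15, 15, 14, 13 and 11 with a pseudocount of 1, a minimum of 1 FPKM, no minimum, quantile normalization and median ratio scaling, and 8 without the trend on the mean. In the same order, 4.99%, 5.31%, 4.67%, 5.54%, 3.85% and 4.12% of all genes were lower, against 5.17% in the main fit. Rescaling without small RNAs moved it to 30, with 61 of the 104 further genes lower, where 29.7% of all genes were lower. The median of the 41 was then -0.78, while that of all genes moved from -0.02 to -0.38. Of the 41, 34 had groups that did not overlap, where 45.0% of all genes had both cKO libraries below the controls. Of the 41, 14 were past the adjusted threshold and 4 past 2-fold, and the shares of all genes past these are not given here. Leaving out 1 library at a time gave 2 to 22 lower genes, 20 to 34 with groups apart (where fewer libraries put 21.0% to 30.4% of all genes apart in that direction, against 16.3%), and 4 to 26 lower among the 104 further genes. Without MG15 the count with groups apart was 34 and that of further genes 26, without MG19 the former was 31, and without MG18 the latter was 4. Of all genes, 3.70%, 4.98% and 5.95% were lower without MG15, MG16 and MG17. Genes near 0 changed sign. With quantile normalization Mad2l1 was at 0.021, Ncapd2 at 0.013 and Racgap1 at 0.019, and with median ratio scaling Mad2l1 was at 0.027 and Racgap1 at 0.0066. With rescaling Cdc25b was at -0.26, Ube2c at -0.34 and Mki67 at -0.36. Over the fits without a library, the log2 fold change ran from -0.13 to 0.34 for Cdc25b, from -0.077 to 0.12 for Ube2c, from -0.29 to 0.017 for Aurka, from -0.42 to 0.083 for Aurkb, from -0.17 to 0.045 for Incenp, from -0.19 to 0.27 for Mad2l1, from -0.33 to 0.10 for Cenpf, from -0.22 to 0.18 for Mki67, from -0.19 to 0.089 for Ncapd2 and from -0.28 to 0.22 for Racgap1. The cause of these changes was not tested beyond what each alternative leaves out. No paired analysis was possible because the labels give no replicate numbers shared between the groups, and the meaning of the numbers that end the sample titles is not stated. FPKM without counts allowed no counting interval, and only a rough depth.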
